A study of Mus musculus with 18 samples.

Results

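In the ∆Foxp3 compartment of mixed bone marrow chimeras, a set of splenic CD4+ T cells still fell into the annotated regulatory T (Treg) class although the donor cells carried a Foxp3 loss-of-function reporter allele. These Treg-like cells were compared with activated conventional T (Tconv) cells of the same ∆Foxp3 samples, and the same contrast in the wild-type (WT) compartment of the chimeras served as the measure of an intact Treg signature. The members were all cells that the authors' deposited annotation placed in the general class Treg or activated Tconv in the 3 ∆Foxp3 chimera samples. There were 887 such cells, 142 Treg-like and 745 activated Tconv, among 5120 cells of these samples and 26652 cells in the series. The WT chimera samples gave 309 Treg and 625 activated Tconv cells.

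∆Foxp3 marrow came from B6 Foxp3DeltaEGFPiCre x ROSA-YFP donors bearing CD45.1/2, and WT marrow from B6 Foxp3-IRES-GFP donors bearing CD45.1, all male and 21 days old. Equal shares of CD3-depleted marrow were given to CD45.2 hosts that had received 1000 rad at 7 weeks of age. Spleens of male hosts, labelled as 16 weeks old, were taken 10 weeks after transfer, TCRβ+CD4+ cells of each CD45 type were sorted, and mice were told apart by hashtag antibodies. Mice 1, 2 and 3 each gave 1 ∆Foxp3 and 1 WT sample, so that both genotypes had developed in the same irradiated host, beside WT Treg cells and whatever host T cells had survived irradiation. Both donor lines carry a GFP reporter at Foxp3; ∆Foxp3 cells additionally carry the iCre and ROSA-YFP alleles, and the 2 lines differ at the CD45 locus, so a genotype difference is a difference between these 2 donor lines. Expression was read by 10x Genomics 3′ single-cell RNA sequencing with unique molecular identifiers (UMIs). For an independent Treg signature, 2 sorted GFP+ Treg and 2 sorted GFP- Tconv samples of male WT mice (B6 Foxp3-IRES-GFP x CD45.1) aged 9 weeks were used.

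FOXP3 is the transcription factor that marks the Treg lineage and is needed for its suppressive function. Treg cells depend on interleukin-2 (IL-2) from other T cells, which they bind through the high-affinity receptor chain encoded by Il2ra and read out through STAT5. They also carry CTLA4, which lowers costimulation, and members of the TNF receptor family, and thymus-derived Treg cells are rich in the Ikaros family factor Helios, encoded by Ikzf2. Loss of FOXP3 is known to leave cells that begin the Treg programme without becoming functional Treg cells.

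UMIs were summed per sample and class. The sums held 233381 to 256707 UMIs for ∆Foxp3 Treg-like cells, 1268967 to 1488619 for ∆Foxp3 activated Tconv cells, 395801 to 775603 for WT Treg cells and 1031699 to 1603816 for WT activated Tconv cells, so that 1 UMI in a Treg-like sum was worth about 4 CPM (UMIs of a gene per 1000000 UMIs of the sum). Levels are in CPM of the sum; a sum does not tell more cells with a transcript from more transcripts per cell. Fold changes are on the log2 scale from edgeR's quasi-likelihood fit, with their standard error (SE). The replicates are 3 mice, and 3 pairs allow no exact p under 0.25 for a single value, so p-values come from the fit across all genes. The classes had been drawn from gene expression by the authors, so differences between the classes within a genotype are given as a description. The tests are those of the genotype difference. They use the same classes, so they cover only cells whose expression had placed them in the class.

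Treg-like cells made up 2.39%, 4.84% and 2.27% of the CD4+ cells in the ∆Foxp3 samples of mice 1, 2 and 3 (51, 44 and 47 cells), against 9.77%, 8.76% and 8.82% in the WT samples (73, 162 and 74 cells). Every ∆Foxp3 share lay under every WT share. In the annotation the class consisted of an activated and a resting Treg cluster. The activated cluster held 44.7% to 63.6% of the ∆Foxp3 Treg-like cells and 48.1% to 50.7% of the WT Treg cells; the highest share was that of ∆Foxp3 mouse 2. The Treg-like cells of mouse 2 stood apart from those of mice 1 and 3 in several of the values below. Its sample carried another tube label than the other 2 ∆Foxp3 samples, the same label as WT mice 1 and 3. Between them, the 6 chimera samples shared 3 cell barcodes. The activated Tconv class pooled clusters annotated as tissue-like, follicular helper (Tfh), Th1, dividing and NKT, one named for Irf7 and a further activated cluster, and the Tfh share varied most, from 13.1% to 36.0% of the class in ∆Foxp3 samples and from 17% to 32.3% in WT samples.

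The fluorescent reporter and Foxp3 itself were read before the signature. GFP transcripts were found in 9.80%, 25.0% and 10.6% of ∆Foxp3 Treg-like cells of mice 1, 2 and 3, against 2.19%, 5.61% and 3.11% of ∆Foxp3 activated Tconv cells. In the WT compartment, 37.0%, 41.4% and 52.7% of Treg cells and 16.4%, 8.95% and 10.5% of activated Tconv cells had a GFP UMI. The 2 donor lines carry different GFP reporter alleles, so the shares are not like for like between genotypes. The Treg class was above the activated Tconv class in all 6 samples, and the 2 classes did not overlap in either genotype. In resting Tconv cells, which should not express the reporter, the share of cells with a GFP UMI was 1.44%, 3.23% and 0.96% in ∆Foxp3 samples and 4.85%, 1.60% and 2.12% in WT samples, at median depths of 5038 to 6696 UMIs per cell, against 4478 to 5588 in the other classes. With every cell thinned to 2500 UMIs the order was unchanged, with 5.71%, 12.9% and 5.38% of ∆Foxp3 Treg-like cells against 1.31%, 3.27% and 1.84% of ∆Foxp3 activated Tconv cells. In the tissue-like cluster of the activated Tconv class, GFP was found in 13 of 209 ∆Foxp3 cells (6.22%) and in 39 of 189 WT cells (20.6%).

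**Figure D1:**
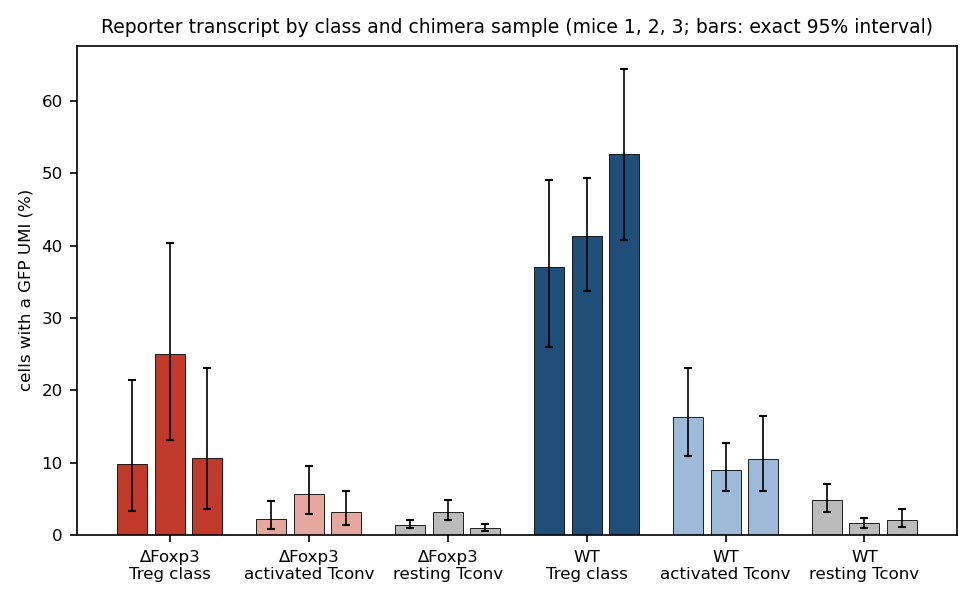
Share of cells with at least 1 GFP UMI, in percent, by class, with ∆Foxp3 chimera samples left of WT; each column is 1 mouse (1, 2 and 3 from left to right in a class) and bars are exact binomial 95% intervals, which cover counting error only. Treg-like cells of ∆Foxp3 mice sit at 9.80%, 25.0% and 10.6%, above activated Tconv cells of the same mice and below WT Treg cells, which carry another GFP reporter allele.

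Foxp3 itself was at 3.90, 25.7 and 21.1 CPM in ∆Foxp3 Treg-like cells of mice 1, 2 and 3, on 12 UMIs in all, and at 2.02, 2.36 and 0.720 CPM in ∆Foxp3 activated Tconv cells. WT Treg cells had 48.0, 29.7 and 32.9 CPM, on 56 UMIs, and WT activated Tconv cells 8.55, 6.24 and 4.85 CPM. These 3′ tags were present in both genotypes, and since the labels do not give the part of the transcript that the allele lacks, they do not check the loss of the protein. Cre, which only the ∆Foxp3 allele carries, had 0, 0 and 1 UMI in the Treg-like sums.

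Ikzf2, Il2ra and Ctla4, the markers against which the class was checked, were found in Treg-like cells of every ∆Foxp3 mouse. Ikzf2 was at 277, 656 and 372 CPM in ∆Foxp3 Treg-like cells of mice 1, 2 and 3 and at 40.3, 191 and 76.3 CPM in ∆Foxp3 activated Tconv cells. The WT values were 748, 708 and 484 CPM in Treg cells and 297, 311 and 175 CPM in activated Tconv cells. The classes did not overlap in either genotype, and mouse 2 was the highest of the ∆Foxp3 samples in both classes. Treg-like exceeded activated Tconv cells by 2.20 ± 0.14 in the ∆Foxp3 compartment and by 1.39 ± 0.11 in the WT compartment (log2, SE).

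Il2ra, the gene of the high-affinity IL-2 receptor chain CD25, was at 62.3, 133 and 63.3 CPM in ∆Foxp3 Treg-like cells and at 11.4, 17.3 and 9.35 CPM in ∆Foxp3 activated Tconv cells. WT Treg cells had 227, 231 and 256 CPM and WT activated Tconv cells 31.3, 11.8 and 17.4 CPM. The log2 contrast was 2.77 ± 0.31 in ∆Foxp3 and 3.71 ± 0.19 in WT cells. Ctla4 was at 156, 244 and 114 CPM in ∆Foxp3 Treg-like cells and at 25.5, 73.3 and 42.5 CPM in ∆Foxp3 activated Tconv cells. WT Treg cells had 407, 307 and 258 CPM and WT activated Tconv cells 106, 109 and 85.3 CPM. Its log2 contrast was 1.92 ± 0.20 in ∆Foxp3 and 1.75 ± 0.13 in WT cells. For both genes the classes did not overlap in either genotype, and every ∆Foxp3 Treg-like value lay under every WT Treg value.

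**Figure D2:**
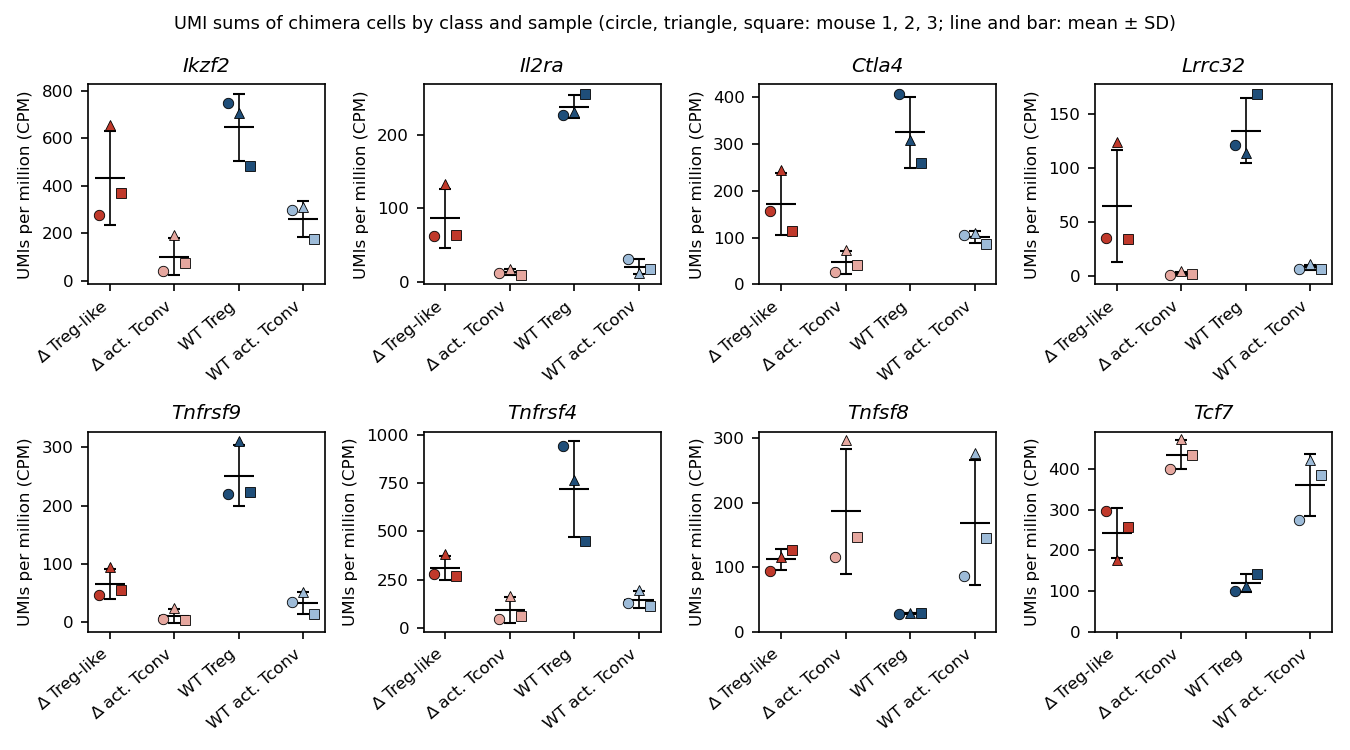
Levels in CPM, on linear axes, of 8 genes in the summed UMIs of each class and sample, with ∆Foxp3 (∆) chimera samples left of WT and Treg-annotated left of activated Tconv cells; circles, triangles and squares are mice 1, 2 and 3, and lines with bars are the mean ± SD. For Il2ra the ∆Foxp3 Treg-like points at 62.3, 133 and 63.3 CPM lie between those of ∆Foxp3 activated Tconv and WT Treg cells.

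Across 7909 genes that passed the filter on low counts, 246 genes (3.11%) passed an adjusted p of 0.05 between Treg-like and activated Tconv cells in the ∆Foxp3 compartment, 136 higher (1.72%) and 110 lower (1.39%), by edgeR's quasi-likelihood test with mouse as a block and Benjamini-Hochberg adjustment. In the WT compartment 803 genes (10.2%) passed, 415 higher (5.25%) and 388 lower (4.91%). The WT sums held more Treg cells, so the counts do not compare the size of the contrasts. They shared 110 genes that were higher and 99 that were lower in both, and no gene passed in opposite directions. Of all genes tested, 16.4% had sums of the 2 classes that did not overlap in the ∆Foxp3 and 24.1% in the WT compartment, and the sums did not overlap between genotypes for 13.0% of genes in Treg-annotated and 16.6% in activated Tconv cells. The ∆Foxp3 count fell to 117, 124 and 153 without mouse 1, 2 or 3.

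Among genes of Treg surface and suppressor function, 9 of the 15 tested were higher and 1 was lower in ∆Foxp3 Treg-like cells, with a median log2 contrast of 1.47, and 8 were higher and 1 was lower in WT Treg cells, with a median of 0.70. The median over all tested genes was 0.00 in the ∆Foxp3 and 0.01 in the WT compartment. The larger ∆Foxp3 contrast does not mean higher levels. Compared between genotypes, ∆Foxp3 minus WT, the list median was -0.29 in Treg-annotated cells, with 1 of 10 tested genes positive. In activated Tconv cells it was -0.85, with 0 of 12 positive. Lrrc32 encodes GARP, which holds latent TGF-β at the cell surface. It was at 35.1, 124 and 33.8 CPM in ∆Foxp3 Treg-like cells and at 0.672, 3.94 and 1.44 CPM in ∆Foxp3 activated Tconv cells, while WT Treg cells had 121, 113 and 169 CPM and WT activated Tconv cells 6.65, 10.6 and 5.82 CPM. The classes did not overlap in either genotype, and ∆Foxp3 mouse 2 reached the WT Treg range. The contrast was 4.94 ± 0.45 in ∆Foxp3 and 4.07 ± 0.25 in WT cells.

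Gpr83, a G-protein-coupled receptor enriched in Treg cells, was at 31.2, 77.1 and 25.3 CPM in ∆Foxp3 Treg-like and at 4.70, 10.2 and 3.6 CPM in ∆Foxp3 activated Tconv cells. WT Treg cells had 106, 116 and 160 CPM and WT activated Tconv cells 4.75, 6.86 and 3.88 CPM. The activated Tconv values of the genotypes overlapped, while every Treg-like value lay under every WT Treg value. Entpd1, the ectonucleotidase CD39, had contrasts of 1.92 ± 0.57 in ∆Foxp3 and 1.30 ± 0.38 in WT cells. Fgl2, a secreted fibrinogen-like protein, had contrasts of 2.24 ± 0.44 in ∆Foxp3 and 1.08 ± 0.28 in WT cells. Folr4, the folate receptor family member FR4 (Izumo1r), had contrasts of 1.02 ± 0.11 in ∆Foxp3 and 1.21 ± 0.10 in WT cells. Nrp1, the semaphorin co-receptor neuropilin-1, had contrasts of 0.91 ± 0.18 in ∆Foxp3 and 0.44 ± 0.13 in WT cells. These contrasts do not compare levels between genotypes. In both Treg clusters the levels of Entpd1, Fgl2 and Nrp1 overlapped between genotypes. Entpd1 had 13 and 1 UMIs, and Fgl2 23 and 2, in the activated and the resting ∆Foxp3 cluster. Across the fits that left out a sample, the ∆Foxp3 call of Entpd1 held in 1 of 6. Itgae, the integrin chain CD103, was at 27.3, 25.7 and 25.3 CPM in ∆Foxp3 Treg-like and 2.69, 3.94 and 6.48 CPM in ∆Foxp3 activated Tconv cells, against 50.5, 29.7 and 28.2 CPM in WT Treg and 34.2, 19.95 and 16.5 CPM in WT activated Tconv cells. Its Treg-like and activated Tconv values were apart in the ∆Foxp3 compartment and overlapped in the WT compartment, and the difference of the contrasts was 1.90 ± 0.57 (adjusted p = 0.264, edgeR, 3 mice).

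Of 8 Treg transcription factors, 2 were higher and Rora was lower in ∆Foxp3 Treg-like cells, and 3 were higher and Rora was lower in WT Treg cells. The second of these beside Ikzf2 was Ikzf4, which encodes the related factor Eos. Ikzf4 was at 35.1, 64.3 and 67.6 CPM in ∆Foxp3 Treg-like and 5.37, 15.8 and 2.88 CPM in ∆Foxp3 activated Tconv cells, against 80.9, 102 and 84.5 CPM in WT Treg and 9.50, 18.1 and 15.5 CPM in WT activated Tconv cells. The classes were apart in both genotypes, with contrasts of 2.85 ± 0.38 in ∆Foxp3 and 2.69 ± 0.25 in WT cells.

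In the IL-2 receptor and STAT5 pathway, 5 of 15 genes were higher in ∆Foxp3 Treg-like cells (Il2ra, Cish, Socs1, Pim1 and Myc; list median 0.48) and 9 were higher in WT Treg cells (median 0.95). Cish, a STAT5-induced inhibitor of cytokine signalling, was at 54.5, 90.0 and 59.1 CPM in ∆Foxp3 Treg-like and 11.4, 22.9 and 16.5 CPM in ∆Foxp3 activated Tconv cells, against 131, 86.4 and 89.2 CPM in WT Treg and 18, 15.6 and 16.5 CPM in WT activated Tconv cells. Its contrast was 2.03 ± 0.29 in ∆Foxp3 and 2.66 ± 0.22 in WT cells. Socs2, another member of that inhibitor family, was at 19.5, 64.3 and 0 CPM in ∆Foxp3 Treg-like and 18.8, 32.3 and 11.5 CPM in ∆Foxp3 activated Tconv cells, against 142, 65.8 and 75.1 CPM in WT Treg and 47.5, 14.3 and 11.6 CPM in WT activated Tconv cells. The classes overlapped in the ∆Foxp3 compartment and were apart in the WT compartment, with contrasts of 0.40 ± 0.41 in ∆Foxp3 and 2.08 ± 0.24 in WT cells; the difference of the contrasts was -1.68 ± 0.44 (adjusted p = 0.135, edgeR, 3 mice).

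Genes known to be low in Treg cells were lower here too. Of 9 such genes, 6 were lower in ∆Foxp3 Treg-like cells (median -0.89) and 7 in WT Treg cells (median -1.64), while Igfbp4 was higher in both. Id2, an inhibitor of E-protein transcription factors, was at 140, 120 and 118 CPM in ∆Foxp3 Treg-like and 429, 362 and 470 CPM in ∆Foxp3 activated Tconv cells, against 65.7, 46.4 and 91.6 CPM in WT Treg and 516, 238 and 421 CPM in WT activated Tconv cells. Tcf7, the gene of the T cell factor TCF-1, was at 296, 176 and 258 CPM in ∆Foxp3 Treg-like and 400, 474 and 435 CPM in ∆Foxp3 activated Tconv cells, against 101, 113 and 143 CPM in WT Treg and 275, 423 and 386 CPM in WT activated Tconv cells. Both genes were lower in Treg-like than in activated Tconv cells without overlap, and both were higher in ∆Foxp3 Treg-like than in WT Treg cells without overlap.

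**Figure D3:**
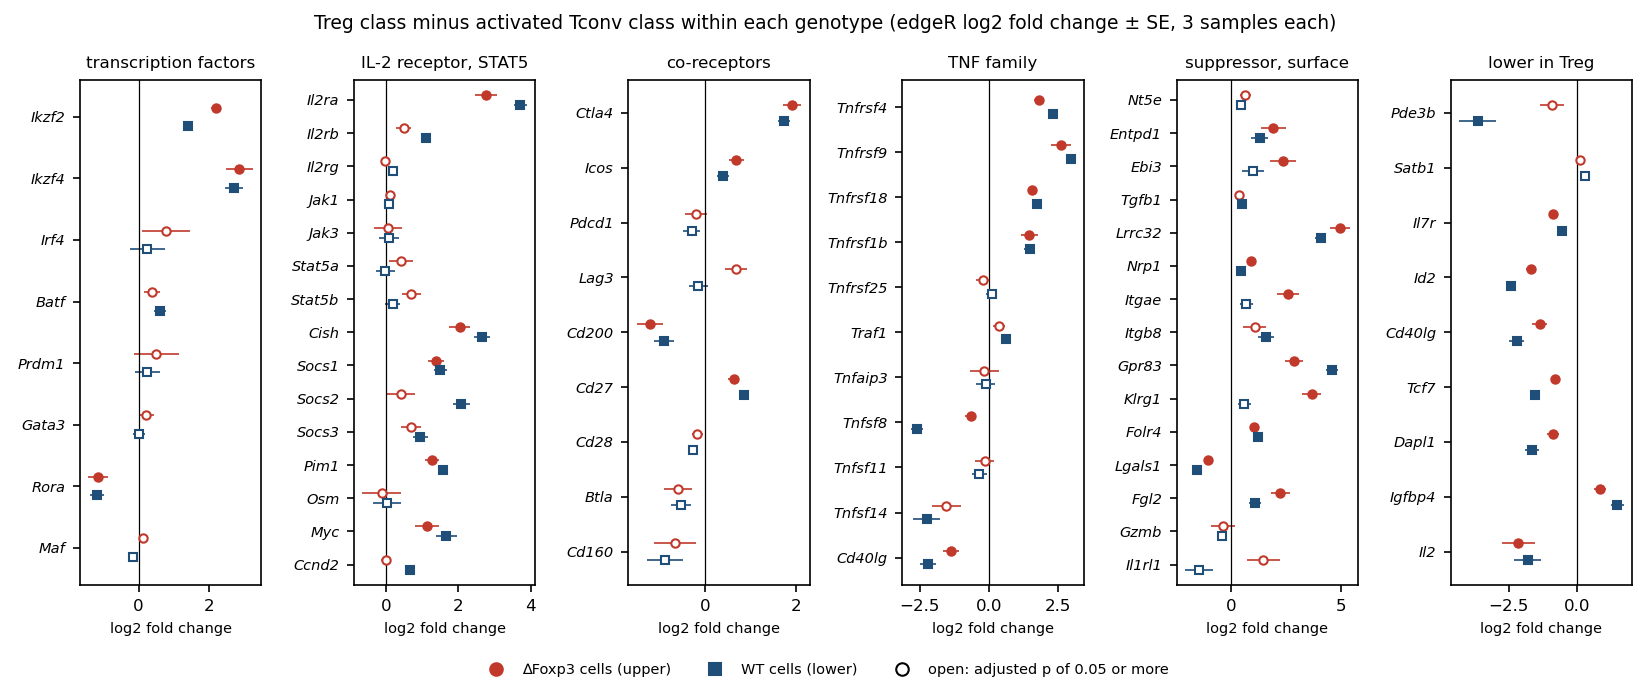
Log2 fold change of Treg-annotated over activated Tconv cells for the tested genes of 6 lists, with ∆Foxp3 cells (circles) above WT cells (squares) and bars of 1 SE from the edgeR fit; open symbols have an adjusted p of 0.05 or more, and each panel has its own axis. Ikzf2 lies further to the right in ∆Foxp3 cells, at 2.20 against 1.39, and Tnfsf8 lies nearer 0 in ∆Foxp3 cells, at -0.65 against -2.61 in WT cells.

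Genes of activated and memory T cells were lower in the Treg class of both genotypes. Of 16 such genes, 15 were lower in ∆Foxp3 Treg-like cells (median -1.14) and 15 in WT Treg cells (median -1.19). The Treg class holds a resting cluster, while the cells it is compared with are activated only. Over all fits, 7 to 15 genes passed as lower in ∆Foxp3 and 10 to 15 in WT cells. The list median ran from -2.83 to -0.80 in ∆Foxp3 and from -2.89 to -0.62 in WT cells. With the activated cluster only, S100a11 was at 0.26 in the ∆Foxp3 contrast (adjusted p = 0.392, edgeR). Itgb1, the integrin β1 chain, was at 117, 253 and 114 CPM in ∆Foxp3 Treg-like and 568, 704 and 438 CPM in ∆Foxp3 activated Tconv cells, against 142, 134 and 110 CPM in WT Treg and 737, 623 and 861 CPM in WT activated Tconv cells. Anxa1, the phospholipid-binding protein annexin A1, had 0 UMIs in all 3 ∆Foxp3 Treg-like sums and 20.1 to 22.9 CPM in ∆Foxp3 activated Tconv cells, which is at least 5.20-fold lower when the Treg-like sums are set at 3 UMIs over the group. On the same floor, Ccr10, a chemokine receptor for skin and mucosal homing, was at least 6.08-fold lower, and the chemokine gene Xcl1 at least 4.32-fold lower, in ∆Foxp3 Treg-like than in ∆Foxp3 activated Tconv cells.

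All 10 proliferation genes were lower in WT Treg than in WT activated Tconv cells, with a median of -3.45, whereas 4 were lower in ∆Foxp3 Treg-like cells, with a median of -1.33. None of the 10 passed the test of the difference. Mki67, the proliferation antigen, was at 0, 25.7 and 12.7 CPM in ∆Foxp3 Treg-like and 26.9, 56.0 and 20.1 CPM in ∆Foxp3 activated Tconv cells, against 5.05, 16.8 and 7.05 CPM in WT Treg and 153, 36.8 and 218 CPM in WT activated Tconv cells. The WT activated Tconv sums of mice 1 and 3 stood far above the rest.

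Of cytokine genes, 6 of 13 passed the count filter: Ltb was higher and Il2 lower in ∆Foxp3 Treg-like cells, and 2 were higher and 3 lower in WT Treg cells. Among 10 helper lineage genes 3 were lower in ∆Foxp3 and 4 in WT cells, and none was higher. Homing receptors split, with 2 of 15 higher and 5 lower in ∆Foxp3 and 1 higher and 6 lower in WT cells. Of naive T cell genes, 2 of 13 were higher and 4 lower in ∆Foxp3, and 4 were higher and 4 lower in WT cells. Immediate early genes were higher in 2 of 9 cases in ∆Foxp3 and 5 in WT cells, survival genes in 0 and 2 of 8, and interferon response genes in 3 of 12 in both, with 1 lower in WT cells. Co-inhibitory and costimulatory receptors gave 3 higher of 9 (Ctla4, Icos and Cd27) and 1 lower (Cd200) in both genotypes.

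An independent Treg signature was taken from the sorted samples. The 2 sorted Tconv samples held 85.1% and 73.0% resting Tconv cells, whereas the chimera contrast is against activated Tconv cells only. In the sort, 13 of 13 naive T cell genes were lower in Treg cells. Of 15 activated and memory genes tested, 10 were higher and 1 was lower. How far the signature reflects activated against resting state was not tested. There, 1038 of 8342 genes (12.4%) passed an adjusted p of 0.05 between GFP+ Treg and GFP- Tconv cells, 615 higher (7.37%) and 423 lower (5.07%), and 426 (5.11%) were at least 1 log2 unit higher in Treg, called Treg-high. Of these, 383 were tested in the chimeras. Treg-high genes passed as higher in 59 cases in ∆Foxp3 Treg-like cells and in 119 cases in WT Treg cells, with 52 genes in both lists. In the other direction, 21 Treg-high genes passed as lower in ∆Foxp3 Treg-like cells and 37 in WT Treg cells. Of the 140 Treg-low genes tested, that is, genes at least 1 log2 unit lower in sorted Treg than in sorted Tconv cells, 16 passed as lower and 1 as higher in ∆Foxp3 Treg-like cells, and 49 as lower and 7 as higher in WT Treg cells. Of the 119, 117 had a positive contrast in the ∆Foxp3 compartment as well, and so had 270 of all 383. The annotation drew the same classes from expression in both genotypes, so these counts are a description and not a test. The median of the 119 was 1.06 in the ∆Foxp3 compartment, against 1.30 in the WT compartment that chose them. Over all 383, the median contrast was 0.37 in ∆Foxp3 and 0.42 in WT cells.

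The contrast itself differed between the genotypes for 9 of 7909 genes (0.114%) at an adjusted p under 0.05, and 467 genes (5.9%) had an unadjusted p under 0.05. The log2 difference, ∆Foxp3 minus WT, was positive for 8 genes (0.101%) and negative for 1, Rps24 (0.0126%). For Tnfsf8, Sostdc1, Gpm6b and S100a11 a positive difference means a contrast less far below 0 in ∆Foxp3 than in WT cells, such as -0.47 ± 0.10 in ∆Foxp3 and -1.16 ± 0.09 in WT cells for S100a11. Of the markers, Ikzf2 passed, with a difference of 0.81 ± 0.18 (adjusted p = 0.0258, edgeR, 3 mice). Il2ra differed by -0.95 ± 0.37 (adjusted p = 0.563) and Ctla4 by 0.18 ± 0.23 (adjusted p = 0.991), both in the edgeR fit. A p that misses the threshold does not show that these contrasts were alike. The Ikzf2 level itself was not higher in ∆Foxp3 Treg-like cells than in WT Treg cells, and the activated Tconv values of ∆Foxp3 mice 1 and 3, 40.3 and 76.3 CPM, lay under all WT activated Tconv values.

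None of the 9 genes passed with DESeq2, where 120 genes had an unadjusted p under 0.05, or with edgeR without the mouse as a block, where 352 did. The Ikzf2 call was lost without ∆Foxp3 mouse 1 or 3 or WT mouse 1 or 2 (adjusted p = 0.487, 0.159, 0.127 and 0.131, edgeR, 2 against 3 mice). The count of 9 was 5 without ∆Foxp3 mouse 1 and 5 without WT mouse 1. Over the 6 fits that left out a sample, the call of Klrg1 held in all 6, of Tnfsf8 in 5, of Cxcl10 and Sostdc1 in 4, of S100a11 in 3, of Ikzf2, Gpm6b and Plac8 in 2 and of Rps24 in 1.

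Cells with a GFP or Foxp3 UMI formed 3.89% of ∆Foxp3 and 13.0% of WT activated Tconv cells, and their part in the Ikzf2 and Klrg1 results was not tested beyond leaving them out. Without them, the Ikzf2 difference was 0.56 (adjusted p = 0.413, edgeR, 3 mice), and without the tissue-like cluster it was 0.73 (adjusted p = 0.173, edgeR). Klrg1, an inhibitory lectin-like receptor of effector cells and of mature Treg cells, was at 50.6, 64.3 and 46.4 CPM in ∆Foxp3 Treg-like and 1.34, 1.58 and 10.1 CPM in ∆Foxp3 activated Tconv cells, against 63.2, 36.1 and 25.8 CPM in WT Treg and 45.6, 20.6 and 23.3 CPM in WT activated Tconv cells. The ∆Foxp3 classes were apart, the WT classes overlapped, and the contrast differed by 3.05 ± 0.52 (adjusted p = 0.00084, edgeR, 3 mice). Without GFP or Foxp3 cells the Klrg1 difference was 2.47 (adjusted p = 0.227, edgeR), and without the tissue-like cluster 1.93 (adjusted p = 0.472, edgeR).

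For Tnfsf8 the values that lay apart were those of the Treg class. The gene encodes CD30 ligand, a TNF family ligand of activated T cells, and was at 93.5, 116 and 127 CPM in ∆Foxp3 Treg-like and 116, 296 and 147 CPM in ∆Foxp3 activated Tconv cells. WT Treg cells had 27.8, 29.7 and 28.2 CPM and WT activated Tconv cells 86.4, 276 and 144 CPM. The activated Tconv values of the genotypes overlapped, whereas all ∆Foxp3 Treg-like values lay above all WT Treg values. The contrast differed by 1.96 ± 0.32 (adjusted p = 0.000623, edgeR, 3 mice), and by 2.13 without GFP or Foxp3 cells (adjusted p = 7.67e-05, edgeR). Without WT mouse 2 it was 1.31 (adjusted p = 0.18, edgeR).

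Cxcl10, an interferon-induced chemokine, was at 160, 167 and 38.0 CPM in ∆Foxp3 Treg-like and 0, 37.8 and 18 CPM in ∆Foxp3 activated Tconv cells, against 27.8, 36.1 and 9.39 CPM in WT Treg and 17.1, 19.3 and 67.9 CPM in WT activated Tconv cells (difference of the contrasts 2.98 ± 0.57, adjusted p = 0.0045, edgeR, 3 mice). Sostdc1, a secreted antagonist of BMP and WNT signalling, rested on single sums: 0, 0 and 127 CPM in ∆Foxp3 Treg-like cells against 0, 3.87 and 0 CPM in WT Treg cells. Gpm6b, a membrane glycoprotein, and S100a11, a calcium-binding protein of activated cells, had differences of 1.59 ± 0.35 and 0.69 ± 0.14 (adjusted p = 0.0326 and 0.00661, edgeR, 3 mice). Rps24, a ribosomal protein gene, had a difference of -0.30 ± 0.07 (adjusted p = 0.0422, edgeR, 3 mice). Plac8 was named after its values were seen, since its level was outside the naming rule: 0, 38.6 and 21.1 CPM in ∆Foxp3 Treg-like and 2.53, 0 and 0 CPM in WT Treg cells, with a difference of 5.51 ± 1.13 (adjusted p = 0.0111, edgeR, 3 mice).

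Treg-annotated cells were then compared directly between genotypes. At an adjusted p under 0.05, 24 of 4183 genes (0.574%) differed, 12 higher and 12 lower in ∆Foxp3 Treg-like than in WT Treg cells (0.287% each), and 331 (7.91%) had an unadjusted p under 0.05. The 12 lower genes were Tnfrsf9, Ctse, Cd55, Gpr83, Il2ra, Hopx, Tnfrsf4, Capg, Pim1, Id3, Ctla4 and Tnfrsf18. The 12 higher genes were Cxcl10, Tnfsf8, Dapl1, Crip1, Fam101b, Trac, Tcf7, Id2, Ict1, Igfbp4, Slfn1 and Rps29. Of the lower genes 9 were Treg-high in the sort, and 7 of the higher genes were Treg-low in it, among 170 such genes (2.04%).

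Leaving out each of the 6 samples in turn kept the direction of all 24 genes, and the calls of Tnfrsf9, Ctse, Il2ra, Tnfrsf4, Capg, Cxcl10, Tnfsf8, Crip1 and Tcf7 held in all 6 fits. Those of Gpr83 held in 5, of Hopx, Id3 and Trac in 4, and of Pim1, Dapl1 and Fam101b in 3. The calls of Cd55, Ctla4, Tnfrsf18, Id2, Ict1, Igfbp4, Slfn1 and Rps29 held in 2 of the 6 fits.

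Il2ra fell by 1.41 ± 0.22 (adjusted p = 0.000504), Ctla4 by 0.85 ± 0.20 (adjusted p = 0.0475) and Gpr83 by 1.45 ± 0.29 (adjusted p = 0.00882) in ∆Foxp3 Treg-like cells relative to WT Treg cells, on the log2 scale of the edgeR fit with 3 mice a group. The Ctla4 call was also lost with DESeq2 (adjusted p = 0.0995). Ikzf2 did not pass in the fit without the host as a block, at -0.53 ± 0.19 (adjusted p = 0.375, edgeR), and its values overlapped between genotypes. Within each host it was lower in ∆Foxp3 than in WT cells, and with the host as a block it passed at -0.54 (adjusted p = 0.00948, edgeR, 3 mice). Cd55, a complement regulator, and Pim1, a STAT5-induced kinase, fell by 1.48 ± 0.31 and 0.96 ± 0.21 (adjusted p = 0.0143 and 0.03, edgeR, 3 mice), with adjusted p up to 0.188 for Cd55 and 0.329 for Pim1 on leaving out a sample (edgeR). Hopx, a homeodomain-only protein of induced Treg cells, was at 70.1, 133 and 88.7 CPM in ∆Foxp3 Treg-like and at 323, 222 and 171 CPM in WT Treg cells, a fall of 1.23 ± 0.23 (adjusted p = 0.00521, edgeR, 3 mice). Capg, an actin-capping protein, fell by 1.0 ± 0.16 (adjusted p = 0.000606, edgeR, 3 mice).

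Among TNF family genes, 3 receptors were lower in ∆Foxp3 Treg-like than in WT Treg cells. Tnfrsf9 encodes 4-1BB, Tnfrsf4 encodes OX40 and Tnfrsf18 encodes GITR, 3 costimulatory receptors abundant on Treg cells. Tnfrsf9 was at 46.7, 94.3 and 54.9 CPM in ∆Foxp3 Treg-like cells and at 220, 311 and 223 CPM in WT Treg cells. In activated Tconv cells it was at 5.37, 24.4 and 3.6 CPM in ∆Foxp3 and 34.2, 51.1 and 14.5 CPM in WT samples. Treg-annotated cells of the genotypes did not overlap, and the fall of 1.92 ± 0.23 was the largest of the 12 (adjusted p = 1.92e-05, edgeR, 3 mice). Tnfrsf4 was at 280, 381 and 270 CPM in ∆Foxp3 Treg-like and 940, 767 and 449 CPM in WT Treg cells (-1.15 ± 0.19, adjusted p = 0.000814, edgeR, 3 mice). Tnfrsf18 was at 242, 394 and 249 CPM in ∆Foxp3 Treg-like and 563, 515 and 402 CPM in WT Treg cells (-0.69 ± 0.17, adjusted p = 0.0488, edgeR, 3 mice); this call held in 2 of the 6 fits that left out a sample, with adjusted p up to 0.459 (edgeR). Within the ∆Foxp3 compartment the 3 receptors remained above activated Tconv cells without overlap, with contrasts of 2.63 ± 0.36, 1.83 ± 0.18 and 1.58 ± 0.14. Of 7 tested members of the TNF family these 3 were lower and Tnfsf8 was higher; the list median was -0.69, against 0.01 over all genes.

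All 3 receptor genes lie on mouse chromosome 4. The 250 bases upstream of each annotated start are shown from RefSeq (GRCm38.p6, + strand, 5′ to 3′), since the 3 genes passed in the same direction. Capitals mark matches on either strand to the forkhead motif TGTTTA, the STAT motif TTCNNNGAA or the AP-1 motif TGACTCA.
Tnfrsf9, first start, chr4:150919905-150920154: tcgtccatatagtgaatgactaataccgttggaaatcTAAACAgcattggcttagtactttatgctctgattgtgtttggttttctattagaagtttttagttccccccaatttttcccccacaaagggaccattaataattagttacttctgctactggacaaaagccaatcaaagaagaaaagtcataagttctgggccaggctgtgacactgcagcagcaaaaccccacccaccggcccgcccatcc
Tnfrsf9, second start, chr4:150927749-150927998: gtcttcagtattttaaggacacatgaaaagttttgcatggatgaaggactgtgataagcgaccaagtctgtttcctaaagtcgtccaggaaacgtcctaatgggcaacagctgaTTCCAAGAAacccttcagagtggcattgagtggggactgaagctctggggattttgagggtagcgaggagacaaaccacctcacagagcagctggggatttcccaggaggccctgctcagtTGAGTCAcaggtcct
Tnfrsf4, chr4:156013445-156013694: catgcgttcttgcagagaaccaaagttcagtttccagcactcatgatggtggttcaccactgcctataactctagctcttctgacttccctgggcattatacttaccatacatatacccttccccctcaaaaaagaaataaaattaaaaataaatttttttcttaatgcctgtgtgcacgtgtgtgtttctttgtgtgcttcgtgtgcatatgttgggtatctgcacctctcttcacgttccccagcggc
Tnfrsf18, chr4:156026072-156026321: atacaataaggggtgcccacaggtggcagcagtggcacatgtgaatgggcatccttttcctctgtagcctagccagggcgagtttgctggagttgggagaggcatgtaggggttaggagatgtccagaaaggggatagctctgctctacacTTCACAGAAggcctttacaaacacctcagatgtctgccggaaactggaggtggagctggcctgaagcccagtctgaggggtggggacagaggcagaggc
The first Tnfrsf9 window held the forkhead letters at -213 to -208, printed as the reverse complement TAAACA, so that TGTTTA lies on the minus strand. The second held the STAT letters at -136 to -128 and the AP-1 letters at -15 to -9. The Tnfrsf18 window held the STAT letters at -99 to -91, and the Tnfrsf4 window held none of the 3 motifs. Of 32851 RefSeq windows of this length, 12% held the forkhead, 7.02% the STAT and 4.46% the AP-1 letters, and no match overlapped another in these 4 windows. A match is a description of the letters and not of binding.

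**Figure D4:**
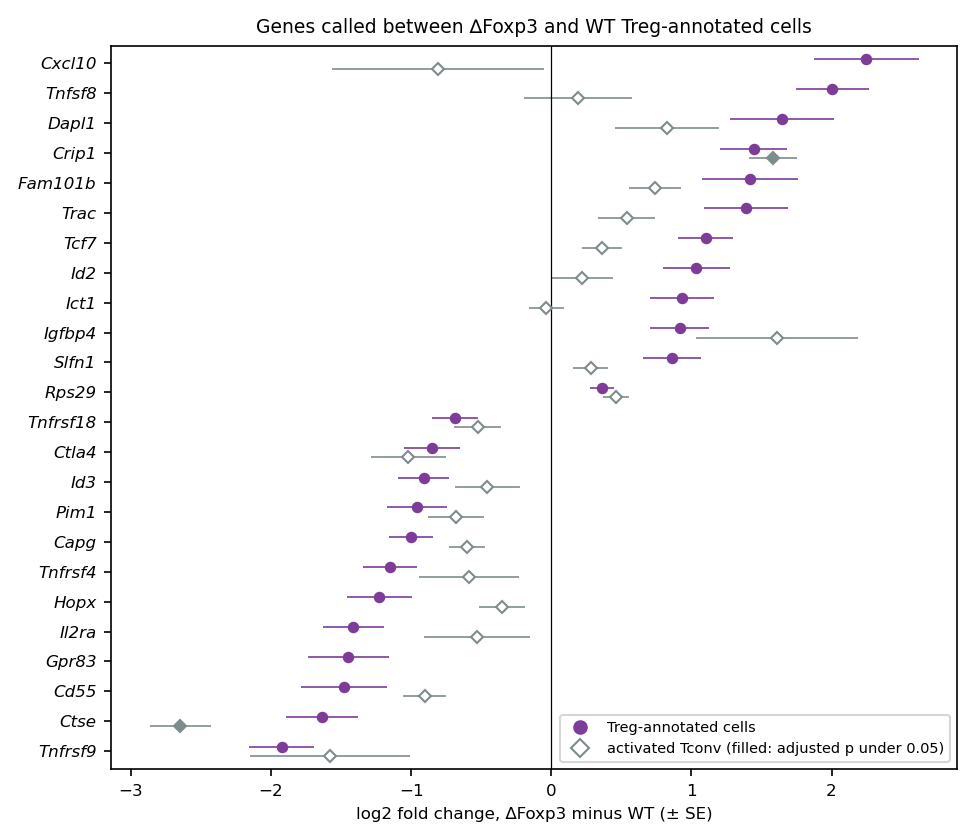
Log2 fold change of ∆Foxp3 over WT cells, with bars of 1 SE from the edgeR fit, for the 24 genes past an adjusted p of 0.05 in Treg-annotated cells (circles), and the same comparison in activated Tconv cells where tested (diamonds, filled where the adjusted p is under 0.05). In Treg-annotated cells Tnfrsf9 is the lowest at -1.92 and Cxcl10 the highest at 2.25.

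Genes known to be low in Treg cells were higher in ∆Foxp3 than in WT cells in both classes. The list median was 0.98 over 6 tested genes in Treg-annotated cells. In activated Tconv cells it was 0.74, with 9 of 9 tested genes positive and 0 passing. Of 6 tested genes of that list, 4 rose relative to WT Treg cells: Tcf7 by 1.10 ± 0.20, Id2 by 1.03 ± 0.24, Dapl1 by 1.65 ± 0.37 and Igfbp4 by 0.92 ± 0.21 (log2; adjusted p = 0.00205, 0.0392, 0.03 and 0.0351, edgeR, 3 mice). Tcf7 passed in all 6 fits that left out a sample, Dapl1 in 3, and Id2 and Igfbp4 in 2, with adjusted p up to 0.631 for Dapl1, 0.321 for Id2 and 0.359 for Igfbp4 (edgeR). Dapl1 was at 113, 51.4 and 38.0 CPM in ∆Foxp3 Treg-like and 30.3, 19.3 and 21.1 CPM in WT Treg cells. Over the 56 Treg-low genes tested the median was 0.51, with 7 passing as higher and none as lower; over the 193 Treg-high genes tested it was -0.36, with 9 passing as lower and 1, Cxcl10, as higher. The median of all 4183 genes was 0.01.

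In activated Tconv cells, 23 of the 24 genes were tested and 21 had the same sign. Both comparisons used the same 6 samples. The share of all genes with the same sign was not computed, so this count is a description only. Of 8160 genes, 5 (0.0613%) passed, 4 higher (0.049%) and 1 lower (0.0123%), and 695 (8.52%) had an unadjusted p under 0.05. Ctse, the aspartic protease cathepsin E, was at 20.2, 43.3 and 23.0 CPM in ∆Foxp3 and 166, 210 and 197 CPM in WT activated Tconv cells and fell by 2.65 ± 0.22 (adjusted p = 0.000737, edgeR, 3 mice), and it fell by 1.64 ± 0.26 in Treg-annotated cells (adjusted p = 0.000588, edgeR). Crip1, a LIM-domain protein, was at 1454, 904 and 1439 CPM in ∆Foxp3 and 438, 453 and 476 CPM in WT activated Tconv cells, higher in ∆Foxp3 by 1.58 ± 0.17 (adjusted p = 0.0057, edgeR, 3 mice). The other called genes were mt-Nd3 and the unnamed gene models Gm15987 and Gm15446, the last of which was named after its values were seen. Over Treg-high genes the median was -0.32 (354 tested), and -0.27 with GFP or Foxp3 cells left out; over Treg-low genes it was 0.34 (147 tested), against 0.00 over all genes. A genotype difference seen in both classes cannot be told apart from one of the donor lines.

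The Treg-like cells of ∆Foxp3 mouse 2 had the highest Ikzf2, Il2ra, Ctla4, Lrrc32, Gpr83, Tnfrsf9 and Tnfrsf4 levels of the 3 ∆Foxp3 samples, the highest GFP share and the highest share of the activated cluster. Without this sample, 88 genes passed between Treg-annotated cells in place of 24, Il2ra stood at -1.83, and Ikzf2 passed at -0.92 (adjusted p = 0.000696, edgeR). With the host mouse as a block, 57 genes passed, among them 23 of the 24 (Rps29 had an adjusted p = 0.0628, edgeR, 3 mice), and 20 genes in place of 5 passed in activated Tconv cells. In Treg-annotated cells the count was 12 without ∆Foxp3 mouse 3, 12 without WT mouse 1, 14 without WT mouse 2 and 37 without WT mouse 3.

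The activated and the resting Treg cluster divided the signature. In the activated cluster, Ikzf2 was at 467, 620 and 540 CPM in ∆Foxp3 and 1007, 1019 and 726 CPM in WT cells, and Tnfrsf9 at 69.1, 124 and 78.6 CPM in ∆Foxp3 and 374, 596 and 413 CPM in WT cells. Tnfsf8 in this cluster was at 147, 153 and 177 CPM in ∆Foxp3 and 5.42, 32.8 and 11.2 CPM in WT cells. The values of these 3 genes did not overlap between genotypes in the activated cluster. In the resting cluster, Il2ra was at 49.6, 291 and 96.2 CPM in ∆Foxp3 and 289, 371 and 385 CPM in WT cells, and Ikzf2 at 121, 706 and 244 CPM in ∆Foxp3 and 521, 471 and 308 CPM in WT cells. ∆Foxp3 mouse 2, with 16 cells in the resting cluster, reached the WT range for Il2ra and lay above it for Ikzf2. Klrg1 was at 112, 109 and 108 CPM in the activated cluster of ∆Foxp3 cells and had 0 UMIs in all 3 resting sums. Icos, a costimulatory receptor, was higher than in activated Tconv cells for the Treg class as a whole, and lower by the resting cluster alone, at -1.58 in ∆Foxp3 and -2.21 in WT cells. In the activated cluster alone Il2ra did not pass between genotypes, at -1.05 (adjusted p = 0.462, edgeR, 3 mice).

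**Figure D5:**
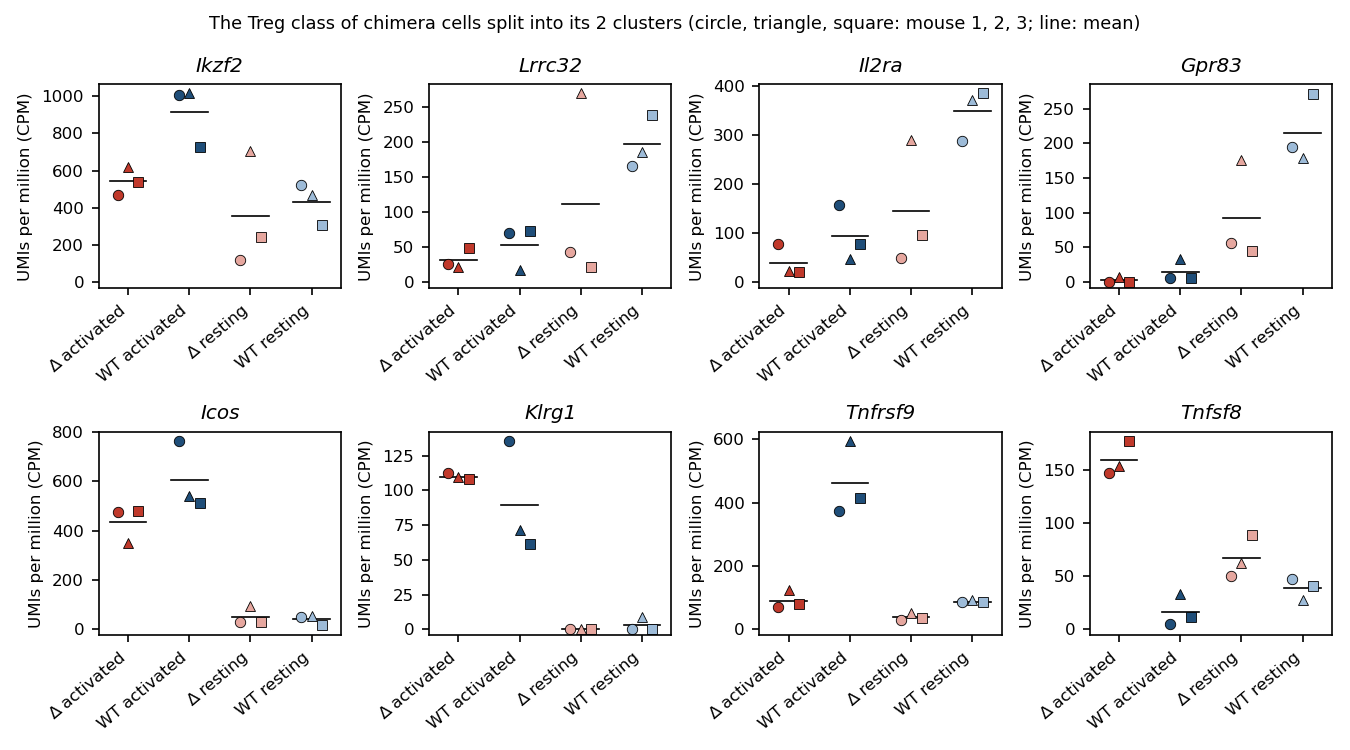
Levels in CPM, on linear axes, of 8 genes in the activated and the resting Treg cluster, with ∆Foxp3 (∆) chimera samples left of WT within each cluster; circles, triangles and squares are mice 1, 2 and 3, and lines are means. In the activated cluster Tnfrsf9 lies at 69.1 to 124 CPM in ∆Foxp3 and at 374 to 596 CPM in WT cells, and in the resting cluster the triangle of ∆Foxp3 mouse 2 is the highest of the ∆Foxp3 points for Ikzf2, Lrrc32, Il2ra and Gpr83.

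Markers of other cell types were summed in each class. B cell markers came to 283 to 386 CPM in ∆Foxp3 Treg-like cells and 176 to 257 CPM in ∆Foxp3 activated Tconv cells, against 444 to 526 CPM in WT Treg and 240 to 330 CPM in WT activated Tconv cells, and Cd79a and Ms4a1 were at 0 in the Treg-like sums. Of 5 tested B cell markers, Cd74 passed as higher in ∆Foxp3 Treg-like cells and Cd74 and Ighm in WT Treg cells. In the sorted WT samples, 3 of 5 tested passed as higher in Treg than in Tconv cells: Cd79b, Cd74 and Ighm. Myeloid markers were at 97.1 to 159 CPM in ∆Foxp3 Treg-like cells with 7 of 9 at 0, and lay at 110 to 160 CPM in the other classes. CD8 and NK cell markers were at 19.5 to 116 CPM in ∆Foxp3 Treg-like and 165 to 331 CPM in ∆Foxp3 activated Tconv cells, against 39.9 to 93.5 CPM in WT Treg and 178 to 315 CPM in WT activated Tconv cells, and Klrd1 and Nkg7 were lower in the Treg class of both genotypes. The part of the B cell marker difference in the genotype comparison was not tested. With cells of 2 or more UMIs of other types removed, which was 60.6% of ∆Foxp3 Treg-like and 69.6% of WT Treg cells, 6 genes passed between Treg-annotated cells.

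The same contrast was taken in intact male mice of both genotypes (B6 Foxp3DeltaEGFPiCre x ROSA-YFP and B6 Foxp3-IRES-GFP, with CD45.1 in the WT mice of 9 weeks). With the earlier kit (V2), both genotypes were 3 weeks old; with the kit used for the chimeras (V3), ∆Foxp3 mice were 3 weeks and WT mice 9 weeks old, so age and genotype cannot be told apart there. Each group had 2 samples. The Ikzf2 contrast was 0.71 ± 0.13 in ∆Foxp3 and 2.05 ± 0.13 in WT mice with V2, and 1.16 ± 0.14 in ∆Foxp3 and 1.90 ± 0.22 in WT mice with V3, so that its order between genotypes was the opposite of that in the chimeras. Il2ra gave 2.80 ± 0.39 in ∆Foxp3 and 3.60 ± 0.20 in WT mice with V2, and 1.81 ± 0.38 in ∆Foxp3 and 3.66 ± 0.41 in WT mice with V3. Ctla4 gave 1.76 ± 0.18 in ∆Foxp3 and 2.51 ± 0.19 in WT mice with V2, and 2.05 ± 0.15 in ∆Foxp3 and 2.37 ± 0.22 in WT mice with V3. The contrast of all 3 markers over activated Tconv cells was positive in intact ∆Foxp3 mice as well. Gpr83 gave 4.40 ± 0.37 in ∆Foxp3 and 4.49 ± 0.20 in WT mice with V2, and 5.69 ± 0.74 in ∆Foxp3 and 5.08 ± 0.81 in WT mice with V3. Klrg1 had negative contrasts between Treg-like and activated Tconv cells of intact ∆Foxp3 mice, at -1.34 ± 0.26 with V2 and -0.61 ± 0.43 with V3, against 1.76 ± 0.28 with V2 and 0.95 ± 0.49 with V3 in WT mice, which is the opposite of the chimera result. A GFP UMI was found in 38.1% and 38.9% of ∆Foxp3 Treg-like and in 26.1% and 36.9% of WT Treg cells with V2. With V3 it was found in 67.7% and 60.6% of ∆Foxp3 Treg-like and in 37.8% and 48.3% of WT Treg cells. This order between genotypes was the opposite of that in the chimeras. These values are a description of 2 samples a group, and the genotype difference was not tested in them.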

How the data were processed

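The deposited matrix holds UMI counts of 33006 genes in 26652 cells, which the authors had filtered and annotated; Cell Ranger 3.0.2 and the mm10 genome are named per the submitters' processing notes. Cell classes, clusters and samples were read from the authors' deposited cell table, whose mitochondrial percent per cell was used for depth and quality only; 46 further columns of it were not used. The Foxp3 row of the matrix equalled Foxp3 plus GFP in WT cells and Foxp3 plus Cre in ∆Foxp3 cells, so the separately deposited Foxp3, GFP and Cre counts were used. No doublet caller was run.

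UMI counts were summed per sample and class, and every sum of the main fits held at least 20 cells. Fits of single clusters or after removal of cells had no such limit. The resting cluster of ∆Foxp3 mouse 2 held 16 cells, and the filter on 2 or more UMIs of other types removed 35 of its 44 Treg-like cells. Genes passed edgeR's filterByExpr with a minimum count of 10. edgeR 4.0.16 (quasi-likelihood, TMM scaling, R 4.3.3) gave log2 fold changes, with Benjamini-Hochberg adjustment over all genes tested and a threshold of 0.05; the contrast within a genotype and its difference had the sample as a block, and the comparisons between genotypes had no block. DESeq2 1.42.0 was an alternative. The scripts were tested on simulated data. Same-numbered samples came from the same host, per the labels' hashtags, so the numbers pair them. The correlation of their deviations from the group means was 0.04, 0.13 and 0.06 for mice 1, 2 and 3 in Treg-annotated cells. In activated Tconv cells it was 0.13, 0.18 and 0.04. Samples of different hosts gave -0.12 to 0.07 in Treg-annotated and -0.17 to 0.06 in activated Tconv cells. These ranges overlap the same-host values, so the pairing rests on the labels. Whether the spread between hosts is biological or from cell capture is not separated by the p-values.

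Named genes were Ikzf2, Il2ra, Ctla4, Foxp3, members of 21 gene lists, and genes past the threshold with at least 20 CPM in a group and the largest fold changes. The cells, lists and tests were chosen with earlier results of these data known. Of 201 list genes 2 were matched by an older symbol and 1 was not matched. Intervals of shares are exact binomial (95%) and, like floors of 3 UMIs, cover counting error only. Promoter windows come from RefSeq, GRCm38.p6.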

Additional observations from a re-analysis of the deposited data

Results flagged for a closer look

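The contrast between Treg-annotated and activated Tconv cells differed between the ∆Foxp3 and the WT compartment, by the interaction term of the edgeR fit, for 9 genes. The log2 difference was 5.51 for Plac8, 4.66 for Sostdc1, 3.05 for Klrg1, 2.98 for Cxcl10, 1.96 for Tnfsf8, 1.59 for Gpm6b, 0.81 for Ikzf2, 0.69 for S100a11 and -0.30 for Rps24. The Sostdc1 value rests on the single Treg-like sum of ∆Foxp3 mouse 3. Cells with a GFP or Foxp3 UMI formed 3.89% of ∆Foxp3 and 13.0% of WT activated Tconv cells. For Tnfsf8 the activated Tconv values of the genotypes overlapped and the Treg values did not.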

How the results depend on the processing

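Calls are few in the tests between genotypes, and their number depends on the fit. The difference of the contrasts (9 genes) gave 42 genes with no filter on low counts, 0 with DESeq2 and 0 with no replicate block (120 and 352 genes at an unadjusted p under 0.05), 3 with the activated Treg cluster only, 4 without 4 activated Tconv clusters, 3 without cells carrying at least 2 UMIs of other cell types, 60 with the resting Treg cluster only, 83 without cells carrying at least 5 such UMIs, and 5 to 12 on leaving out a sample. Treg-annotated cells between genotypes (24 genes) gave 57 with no filter, 9 with DESeq2, 57 with the replicate block and 43 with block and tube label. They gave 6 and 12 under the 2-UMI and 5-UMI filters, 7 with the resting cluster only, and 12 to 88 on leaving out a sample. Activated Tconv cells between genotypes (5 genes) gave 249 with no filter, 72 with DESeq2, 20 with the replicate block and 234 with block and tube label. They gave 128 without 4 clusters, 3 without GFP or Foxp3 cells and 2 without the tissue-like cluster. Under the 2-UMI and 5-UMI filters they gave 1 and 8, and 1 to 186 on leaving out a sample. The ∆Foxp3 contrast (246 genes) gave 82 with DESeq2, 73 with no replicate block, 140 with thinned sums, 45 under the 2-UMI filter, 151 without the tissue-like cluster and 117 to 272 on leaving out a sample. The WT contrast (803 genes) gave 333 with DESeq2, 503 with no replicate block, 488 with the activated cluster only, 529 with thinned sums, 330 under the 2-UMI filter and 540 to 894 on leaving out a sample. The sort (1038 genes) gave 425 with DESeq2 and 532 to 1291 on leaving out a sample. The cause of these moves was not tested, except that filters, thinning and single clusters leave fewer cells. Tests of the resting cluster only, those without the tissue-like cluster or GFP or Foxp3 cells and the 5-UMI filter were chosen after seeing the data.

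Signs turned for few named genes. In the ∆Foxp3 contrast, with the resting cluster only, Cxcl10 was at -6.68, Klrg1 at -4.88, Icos at -1.58 and Fgl2 at -0.29; with the activated cluster only, Igfbp4 was at -1.18, Myc at -0.36 and S100a11 at 0.26; Tnfsf8 was at 0.12 without 4 clusters and Icos at -0.0554 under the 2-UMI filter. In the WT contrast, Icos was at -2.21, Fgl2 at -2.47 and Ighm at -0.31 with the resting cluster only, Icos at -0.37 and -0.015 under the 2-UMI and 5-UMI filters, and, with the activated cluster only, Igfbp4 was at -1.71, Cd55 at -0.54, Rps29 at -0.43, Rps24 at -0.26 and Id3 at -0.061. In the difference of the contrasts, Klrg1 was at -2.50 and Cxcl10 at -2.20 with the resting cluster only, and Sostdc1 ran from -3.57 without ∆Foxp3 mouse 3 to 7.25 without WT mouse 2. Of the other values of named genes under an alternative, 1943 kept direction and side of the threshold, 391 lost the threshold and 13 gained it.

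Depth limits the Treg-like sums: 44 to 51 cells a mouse, with 1 UMI worth about 4 CPM, leave genes under about 20 CPM with few UMIs, and a gene without UMIs there is not shown to be absent.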
